A study of Mus musculus with 6 samples.

Results

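The insulin-like growth factor (IGF) axis was measured in the 2 compartments of the embryonic mouse bladder, through 9 genes: the ligand gene Igf1, the receptor genes Igf1r and Insr, and the binding protein genes Igfbp2, Igfbp3, Igfbp4, Igfbp5, Igfbp6 and Igfbp7. They were chosen by symbol. All 9 were measured, among 18193 genes in all, by 27 of the 34945 probe sets that the platform's annotation ties to a single gene. The arrays compare bladder mesenchyme (3 arrays, numbered 1, 2 and 4 by their labels) with bladder epithelium, labelled urothelium (3 arrays, numbered 5, 7 and 8). All arrays came from wild-type FVB/N embryos of unstated sex at embryonic day 13 (Theiler stage 21), from samples that the labels call not pooled. Each bladder was cut above the ureters and soaked for 20 minutes in 20 µM EDTA, which chelates divalent cations and loosens epithelium, before the compartments were parted with a needle. The separation is mechanical, so each fraction can also hold the blood vessels, nerves and immune cells of its layer. RNA went through 2 rounds of amplification before hybridisation to Affymetrix MOE430 arrays. No label ties an array to an embryo or litter of its own. The spread that the p-values rest on may therefore be technical, and the number of arrays limits the precision.

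IGF1 is a secreted growth factor that is made largely by mesenchymal and stromal cells and that drives growth and survival through the IGF1 receptor, a tyrosine kinase. The insulin receptor is its close relative and can pair with it in hybrid receptors. Most IGF in tissue fluid is held by binding proteins, which keep it from the receptor, carry it or release it when proteases cut them. In developing organs the ligands and binding proteins are often made in different layers, which is the question the compartments allow to be asked here.

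The markers of both compartments followed the labels. Of 14 measured epithelial markers, 13 were higher in urothelium, and their summed signal was 9976 to 13108.5 on the mesenchyme arrays and 485245 to 572383 on the urothelium arrays. Of 13 fibroblast and mesenchyme markers, 12 were higher in mesenchyme, with sums of 280256 to 314780 against 10709.6 to 14608. All 13 endothelial markers were higher in mesenchyme (25601 to 34482.5 against 1318 to 2369), as were 7 of 11 macrophage markers (10758 to 16488 against 1627 to 1774). So were 7 of 10 smooth muscle markers (77147 to 108912 against 14950.2 to 18002). Within the smooth muscle sums Synpo2, which did not pass, alone had a mean of 12145 in urothelium and 7798 in mesenchyme. Of 7 mesothelial markers, 4 were higher in mesenchyme and 2, Msln and Upk1b, in urothelium. Their sums were 8995 to 24820 in mesenchyme and 36252 to 58271 in urothelium, where Upk1b alone had a mean of 38698. Of 8 neuronal and glial markers, 2 were higher in mesenchyme and 1, Ret, in urothelium. Of 7 red cell markers 4 were higher in mesenchyme. The sums overlapped between the compartments for both lists, but single genes weighed heavily in them. Ret alone had a mean of 3536 in urothelium and 317 in mesenchyme. Hbb-y, which did not pass, alone had means of 70227 in mesenchyme and 74564 in urothelium. No marker was listed at 0 on any array. The beta-actin control, whose 3' over 5' ratio grows as amplified RNA gets shorter, gave 8.40 on mesenchyme 1 and 8.60 on urothelium 5. The remaining 4 arrays had ratios of 2.29 to 4.89. The same ratio of the Gapdh control was 26.3 on urothelium 5 and 9.77 to 15.7 on the other arrays. It was 11.5 on mesenchyme 1, so it did not set that array apart.

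Signals are given on the deposited linear scale, and differences as urothelium minus mesenchyme on the scale of log2(signal + 45), which understates the differences of dim genes. A gene passed the test when its adjusted p was under 0.05 in a limma fit to all 18193 genes. Each gene was read from its probe set with the highest mean, and the other probe sets are described beside it. Levels of different probe sets, and so of different genes, cannot be compared on these arrays. Of the 9 genes, 3 were higher in mesenchyme (Igf1, Igfbp3 and Igfbp4), where 8.91% of all genes were, and 2 were higher in urothelium (Igfbp5 and Igfbp7), where 5.80% were. The other 4, Igf1r, Insr, Igfbp2 and Igfbp6, did not pass. The arrays of the compartments did not overlap for 6 of the 9 genes, the 5 that passed and Igfbp6, where 30.1% of all genes had no overlap. Tested against a 2-fold difference in place of 0, Igf1 and Igfbp3 passed and Igfbp4, Igfbp5 and Igfbp7 did not. The median difference of the 9 genes was 0.26 and that of all genes −0.11.

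**Figure D1:**
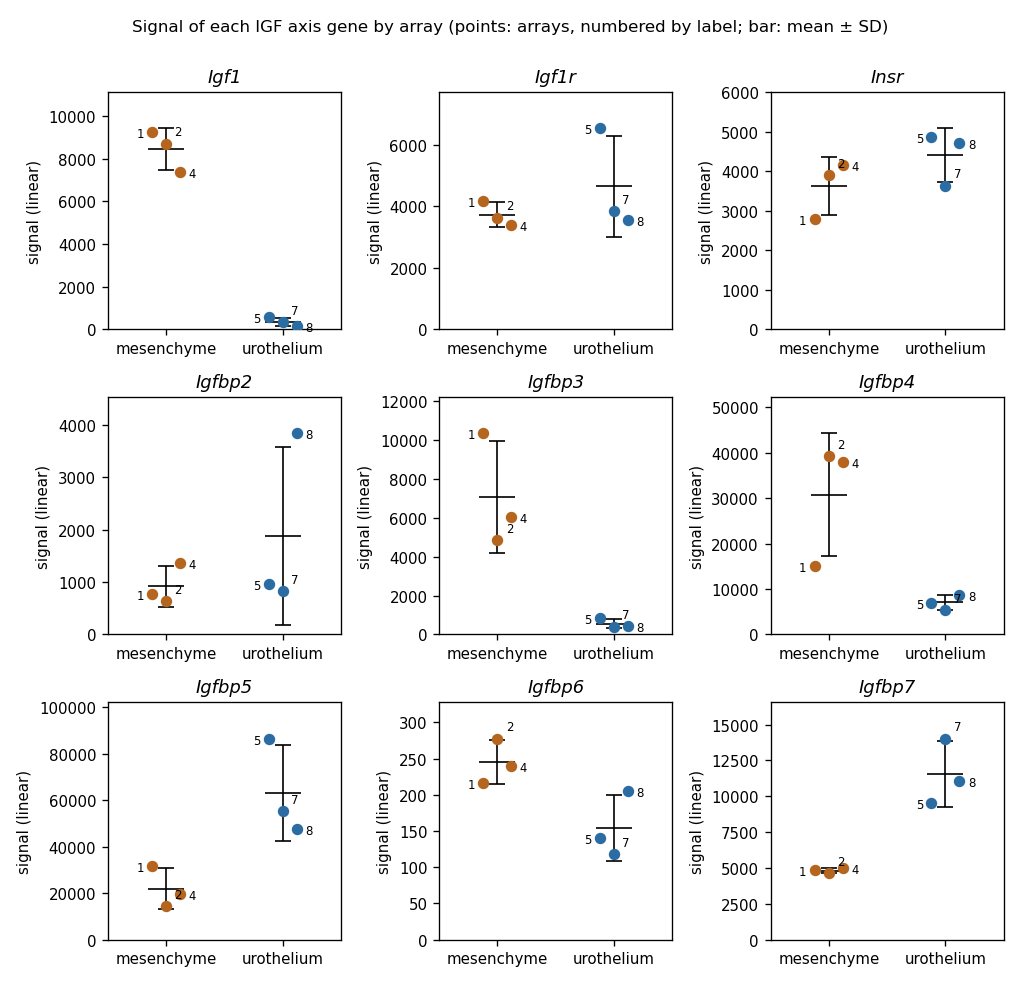
Signal of the 9 genes on each array, on a linear scale from 0, with points for arrays (numbered by their labels) and bars for the mean and SD of 3 arrays. Igf1, Igfbp3 and Igfbp4 lie higher on every mesenchyme array, Igfbp5 and Igfbp7 on every urothelium array, and the arrays of both compartments overlap for Igf1r, Insr and Igfbp2.

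The ligand gene Igf1 was the member that differed most. Its signal was 9259, 8689 and 7377 on mesenchyme 1, 2 and 4, and 569, 330.4 and 177 on urothelium 5, 7 and 8. Every mesenchyme array lay far above every urothelium array. The means were 8442 ± 965 (SD, n = 3) and 359 ± 198, a 23.5-fold ratio, and the log2 difference was −4.51 ± 0.38 (SE; limma adjusted p = 2.05e-05). In a bulk sample, fewer cells that make a transcript and less of it per cell cannot be told apart. The fibroblast and mesenchyme markers, summed, had a ratio of 23.0 between the same compartments, and the part of carried-over mesenchyme in the urothelial signal of Igf1 was not tested.

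Igf1 has 4 probe sets, and 3 of them passed when every probe set was fitted by itself. Probe set 1434413_at gave 5616, 5121 and 5292 in mesenchyme against 121, 282 and 133 in urothelium (−4.66 ± 0.36). Probe set 1419519_at gave 731, 746 and 900.5 against 13.1, 58.3 and 26.6 (−3.47 ± 0.44). The fourth, 1452014_a_at, was dim, with 169, 183 and 451 against 117, 115 and 28.0. It too was lower on every urothelium array, but its difference of −1.23 ± 0.52 did not pass (adjusted p = 0.216).

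Neither receptor gene differed beyond the spread between arrays. Igf1r, which encodes the receptor for IGF1 and IGF2, had 4187, 3629 and 3394 on mesenchyme 1, 2 and 4 and 6534, 3851 and 3566 on urothelium 5, 7 and 8. Urothelium 5 was the highest array, and the other 2 urothelium arrays lay within the range of the mesenchyme arrays. The means were 3737 ± 408 and 4650.25 ± 1638 (SD, n = 3), with a log2 difference of 0.26 (95% interval −0.40 to 0.93; limma adjusted p = 0.670). The direction turned without urothelium 5 (−0.0063) and in the mean of the gene's probe sets (−0.20).

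The 5 probe sets of Igf1r did not run the same way. Besides the brightest, 1446303_at was higher in urothelium (0.67 ± 0.58), while 1426565_at (−1.36 ± 0.51), 1428967_at (−0.48 ± 0.50) and 1452108_at (−0.08 ± 0.41) were lower, and 0 of the 5 passed in the limma fit. Of these, 1426565_at had an unadjusted p of 0.0234 and the others were above 0.05. Probe set 1426565_at gave 767, 1238 and 982 in mesenchyme and 139, 605 and 486 in urothelium. Its compartments did not overlap, and its adjusted p was 0.152. For Igf1r the choice of probe set therefore sets the sign of a difference that no probe set showed past the test.

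Insr, the gene of the insulin receptor, had 2800.15, 3911 and 4167 on mesenchyme 1, 2 and 4 and 4873, 3640.4 and 4725 on urothelium 5, 7 and 8. Urothelium 7 lay below mesenchyme 2 and 4, so the compartments overlapped. The log2 difference was 0.29 (95% interval −0.33 to 0.90; limma adjusted p = 0.602). Its other probe sets, 1421380_at and 1450225_at, gave −0.35 ± 0.59 and −0.17 ± 0.69, and the mean of the 3 had the opposite sign to the brightest (−0.08). The interval of the brightest probe set leaves room for a difference of up to 0.90 towards urothelium on the log2 scale, so the compartments are not shown to be alike.

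**Figure D2:**
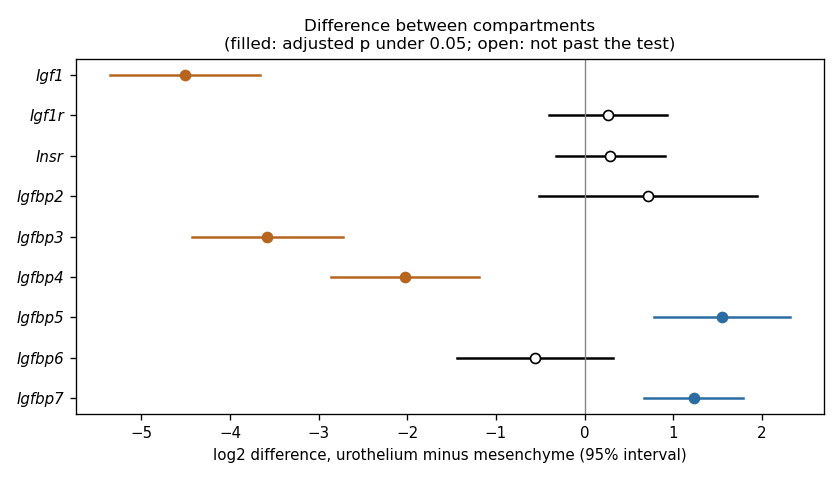
Log2 difference of each gene, urothelium minus mesenchyme, with its 95% interval from the limma fit; filled points passed the test and open points did not. Igf1 (−4.51), Igfbp3 (−3.58) and Igfbp4 (−2.02) lie left of 0, Igfbp5 (1.55) and Igfbp7 (1.23) right of 0, and the intervals of the other 4 genes include 0.

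Among the binding proteins, Igfbp3 and Igfbp4 were higher in mesenchyme and Igfbp5 and Igfbp7 in urothelium. The sequences before their start sites are shown because these 4 genes, of 1 family, fell on opposite sides of the comparison. Each is the 250 bases before a RefSeq start in GRCm38.p6, written 5′ to 3′ along the gene, with capitals for matches on either strand. The motifs searched were TATAAA, which is a form of the TATA box, then CCAAT, known as the CCAAT box, and GGGCGG, which is the GC box. They also included GTAAACA, which is a form of the forkhead site, and CAGCTG, which is a form of the E-box. Only these exact letters were counted.
Igfbp3, chr11:7213924-7214173, minus strand: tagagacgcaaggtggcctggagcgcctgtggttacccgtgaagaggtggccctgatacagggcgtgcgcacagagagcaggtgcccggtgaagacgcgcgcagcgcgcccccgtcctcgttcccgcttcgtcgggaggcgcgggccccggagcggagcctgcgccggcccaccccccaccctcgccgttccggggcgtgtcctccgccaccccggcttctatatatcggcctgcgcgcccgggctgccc
Igfbp4, chr11:99040994-99041243, plus strand: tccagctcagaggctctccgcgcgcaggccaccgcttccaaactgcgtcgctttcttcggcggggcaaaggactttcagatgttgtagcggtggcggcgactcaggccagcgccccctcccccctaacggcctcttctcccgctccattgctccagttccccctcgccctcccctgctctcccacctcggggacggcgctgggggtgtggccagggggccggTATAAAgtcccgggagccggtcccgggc
Igfbp5, chr1:72874866-72875115, minus strand: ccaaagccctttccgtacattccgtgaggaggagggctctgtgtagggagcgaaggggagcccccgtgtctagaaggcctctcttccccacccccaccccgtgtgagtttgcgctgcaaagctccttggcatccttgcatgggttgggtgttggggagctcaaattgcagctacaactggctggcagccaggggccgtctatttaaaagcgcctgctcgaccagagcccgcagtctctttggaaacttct
Igfbp7, chr5:77408046-77408295, minus strand: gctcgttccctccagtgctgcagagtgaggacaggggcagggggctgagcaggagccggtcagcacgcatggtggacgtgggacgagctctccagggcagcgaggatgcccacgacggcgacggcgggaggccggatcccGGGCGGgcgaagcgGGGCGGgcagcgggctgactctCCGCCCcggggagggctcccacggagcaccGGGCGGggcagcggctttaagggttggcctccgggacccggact
The windows of Igfbp3 and Igfbp4 lie inside the span of longer models of the same genes in RefSeq. The table held windows for 8 of the 9 genes. Igfbp4 has 1 TATAAA, starting 28 bases before the start, where 12.4% of 32851 windows of the same length hold that motif. Other forms of the TATA box were not searched, so the other 3 windows are not shown to lack one. Igfbp7 has 4 GGGCGG matches and the other 3 windows have 0, where 32.7% of all windows hold at least 1. The CCAAT box, the forkhead site and the E-box were in none of the 4 windows, and in 33.8%, 3.17% and 13.0% of all windows. The GC content was 73.2% for Igfbp3, 69.2% for Igfbp4, 58.8% for Igfbp5 and 74.0% for Igfbp7, against a median of 52.4%, and the number of CpG dinucleotides was 32, 22, 10 and 26 against a median of 6. Neither measure separated the mesenchymal pair from the urothelial pair. Igfbp7 lay just above Igfbp3 in GC content and between Igfbp4 and Igfbp3 in CpG number, and Igfbp5 was the lowest in both. These are matches of letters and say nothing of factors bound in these cells.

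Igfbp3 encodes the binding protein that carries most IGF in adult serum. Its signal was 10317, 4850.3 and 6031 on mesenchyme 1, 2 and 4 and 828, 409 and 412 on urothelium 5, 7 and 8. All mesenchyme arrays lay above all urothelium arrays. The means were 7066 ± 2876 (SD, n = 3) and 549.5 ± 241, a 12.9-fold ratio, with a log2 difference of −3.58 ± 0.39 (SE; limma adjusted p = 9.12e-05). Its other probe set, 1458268_s_at, gave 2909, 1109 and 1333 against 287, 257 and 306 and also passed (−2.35 ± 0.42). Within each compartment Igfbp3 was highest on the array with the highest beta-actin ratio, mesenchyme 1 and urothelium 5, and without both arrays its difference was again −3.58.

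Igfbp4, whose product restrains IGF until the protease PAPP-A cuts it, had 15169, 39143.5 and 37837 on mesenchyme 1, 2 and 4 and 6985, 5380.0 and 8753 on urothelium 5, 7 and 8. Mesenchyme 1 was the lowest mesenchyme array and still lay above every urothelium array. The means were 30717 ± 13480.4 (SD, n = 3) and 7039.5 ± 1687, a 4.36-fold ratio, with a log2 difference of −2.02 ± 0.38 (SE; limma adjusted p = 0.00364). Without mesenchyme 1 and urothelium 5 the difference was −2.48.

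With 6 probe sets Igfbp4 was the member with the most, and 4 of them passed, all higher in mesenchyme. In the fit over probe sets the brightest, 1437405_a_at, lost its call without urothelium 7 (−1.85, limma adjusted p = 0.0511). They ordered the mesenchyme arrays differently. Probe set 1423756_s_at was nearly level, at 17722, 17649 and 17093 on mesenchyme 1, 2 and 4, against 1703, 1358 and 2700.3 in urothelium (−3.21 ± 0.30). Probe set 1423757_x_at was highest on mesenchyme 1, at 11459 against 6116.5 and 5723 (−2.30 ± 0.35). Probe set 1421992_a_at gave 1402, 1619.9 and 1409 against 243, 335 and 378 (−2.08 ± 0.35). Probe set 1437406_x_at was lowest on mesenchyme 1, at 7067 against 28609.6 and 27514, as was the brightest set, which carries the same source sequence in the annotation. On that array it lay below urothelium 8 (8714), so its compartments overlapped and its difference did not pass (−1.45 ± 0.49, adjusted p = 0.113). It passed without mesenchyme 1 (−2.11), without mesenchyme 1 and urothelium 5 together (−1.99), with array weights (−2.04) and with the beta-actin ratio as a covariate (−1.38). The sixth, 1421991_a_at, was near the floor of the arrays, at 19.9 to 68.8 in mesenchyme and 16.5 to 17.6 in urothelium (−0.40 ± 0.28). Endings in _s_at and _x_at mark probe sets that may bind several transcripts or similar sequences of other genes. Mesenchyme 1 was also the mesenchyme array with the highest beta-actin ratio, but it had the lowest Gapdh ratio in that compartment. The part of RNA length in these orders was not tested.

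**Figure D3:**
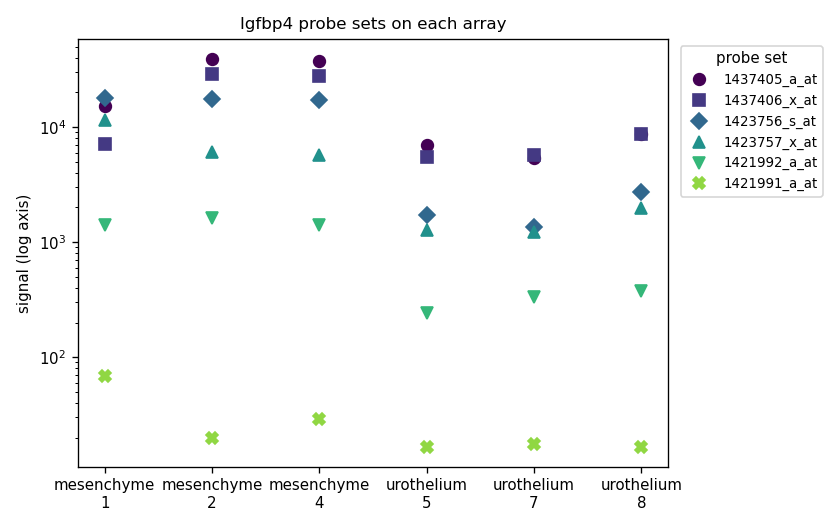
Signal of the 6 Igfbp4 probe sets on each array, on a log axis. The upper 2 sets lie lower on mesenchyme 1 than on mesenchyme 2 and 4 (15169 and 7067), 1423756_s_at is level at 17093 to 17722 in mesenchyme, and 1423757_x_at is highest on mesenchyme 1 (11459).

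Igfbp5 encodes a binding protein that attaches to extracellular matrix. Its signal was 31663, 14450.0 and 19576 on mesenchyme 1, 2 and 4 and 86597, 55210.3 and 47521 on urothelium 5, 7 and 8. The probe set read here, 1452114_s_at, has an ending that marks sets that may bind several transcripts or similar sequences of other genes. Every urothelium array lay above every mesenchyme array, the highest of which was mesenchyme 1. The means were 21896 ± 8838 (SD, n = 3) and 63109.5 ± 20701, a 2.88-fold ratio towards urothelium, with a log2 difference of 1.55 ± 0.35 (SE; limma adjusted p = 0.0106). Relative to the median gene the difference was 1.66. As with Igfbp3, the signal was highest on mesenchyme 1 and urothelium 5 within the compartments, and without both arrays the difference was 1.60. The call was lost without mesenchyme 2 (1.29), and averaging its probe sets gave 0.89 (limma adjusted p = 0.0425). The other probe set, 1422313_a_at, was dim, at 263, 764 and 316 against 186, 543 and 1023, and showed no difference past the test (0.23 ± 0.61). The arrays on which the dim set was highest, mesenchyme 2 and urothelium 8, were the lowest of their compartments for the bright set.

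Igfbp7 encodes a distant member of the family that binds IGFs weakly and is abundant in blood vessels of many tissues. Its signal was 4826, 4624 and 5005 on mesenchyme 1, 2 and 4, the smallest spread relative to its mean among the 9 genes, and 9524, 14033 and 11062 on urothelium 5, 7 and 8. Every urothelium array lay above every mesenchyme array. The means were 4818 ± 190.3 (SD, n = 3) and 11539.7 ± 2292, a 2.39-fold ratio towards urothelium, with a log2 difference of 1.23 ± 0.25 (SE; limma adjusted p = 0.00657), or 1.34 relative to the median gene. This ran opposite to the endothelial markers, 13 of 13 of which were higher in mesenchyme, and 4 of which (Erg, Pecam1, Tie1 and Vwf) had a mean under 45 in urothelium. The call was lost without urothelium 7 (1.08) and in the mean of the gene's 3 probe sets (0.67), which includes 2 dim ones. These gave 0.65 ± 0.54 (1423585_at) and 0.11 ± 0.37 (1437804_at).

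Igfbp2 and Igfbp6 had 1 probe set each and did not pass. Igfbp2, one of the main binding proteins of fetal life, had 766, 630.4 and 1364 on mesenchyme 1, 2 and 4 and 967, 826 and 3839.75 on urothelium 5, 7 and 8. Urothelium 8 stood alone, and the other 2 urothelium arrays lay within the mesenchyme range. The log2 difference was 0.72 (95% interval −0.51 to 1.94; limma adjusted p = 0.4996), and 0.03 without urothelium 8. Igfbp6, whose product prefers IGF2 to IGF1, gave dim signals of 217, 278 and 240.3 in mesenchyme and 140.4, 117 and 205 in urothelium. The mesenchyme arrays all lay above the urothelium arrays, but by little: the log2 difference was −0.56 (95% interval −1.44 to 0.32; limma adjusted p = 0.450).

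**Figure D4:**
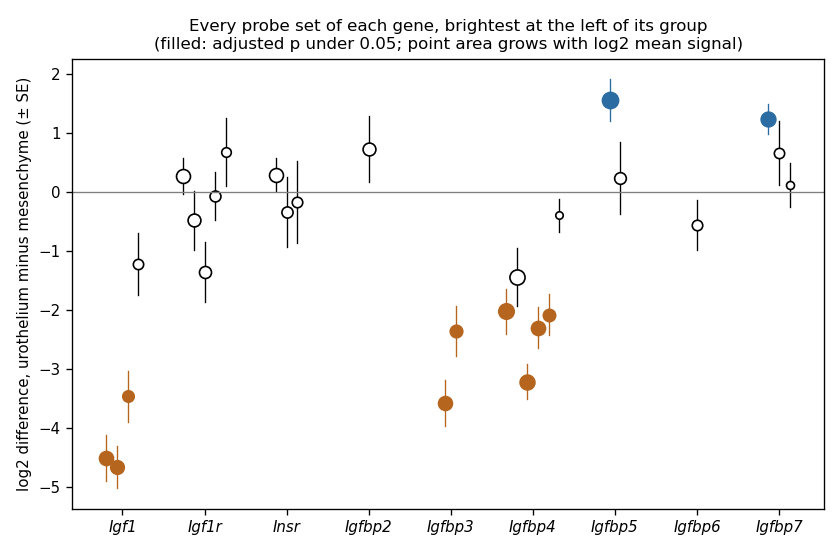
Log2 difference of all 27 probe sets, urothelium minus mesenchyme, with the SE from the fit to all probe sets, grouped by gene with the brightest at the left; filled points passed, and point area grows with the log2 mean signal. The 4 sets of Igf1, 2 of Igfbp3 and 6 of Igfbp4 all lie below 0, while those of Igf1r and Insr lie on both sides of it.

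Fitted one by one, 9 of the 27 probe sets were higher in mesenchyme, where 5.75% of all probe sets were, and 2 in urothelium, where 3.66% were. Probe sets of 1 gene read the same transcripts and are not independent of each other. All sets that passed for a gene had the same direction. The 2 towards urothelium, of Igfbp5 and Igfbp7, were 0 without mesenchyme 2 or without urothelium 7, and 1 without mesenchyme 4 or without urothelium 5. Without mesenchyme 1 and urothelium 5 together the counts were 10 and 2.

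The genes whose profile over the 6 arrays was most like that of a member were found by the distance between log2 profiles after each gene's mean was removed. They were Cyp7b1 (distance 0.37) and Npr3 (0.48) for Igf1, Tnc (0.23) and Foxf1 (0.45) for Igfbp3, and Hnmt (0.45) and Tubb6 (0.46) for Igfbp4. For Igfbp5 they were Gpd2 (0.21) and Lypd6 (0.40), and for Igfbp7 Cwh43 (0.21) and Cryl1 (0.27). Cwh43 had a mean of 16.3 in mesenchyme, below the pseudocount, and 106 in urothelium. The size of its difference (1.29), and so its likeness to Igfbp7, depends on the pseudocount. Foxf1 encodes a forkhead factor of visceral mesenchyme and Tnc the matrix protein tenascin-C. On the log2 scale with the pseudocount, Foxf1 differed by slightly more than Igfbp3 (−3.71 beside −3.58) and Tnc by slightly less (−3.53). On the linear scale the ratio of means was larger for Tnc (1297 in mesenchyme, 71.1 in urothelium) than for Igfbp3 (7066 and 549.5). The urothelium means of Tnc and of Hnmt (55.2, against 320 in mesenchyme) lie near the pseudocount. The sizes of their differences, and so their likeness to Igfbp3 and Igfbp4, depend on it too.

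The list of IGF pathway partners held 55 other genes, of which 50 were measured. Of these, 8 were higher in mesenchyme (8.91% of all genes) and 6 in urothelium (5.80%), and 36 did not pass. Their median difference was −0.18, beside −0.11 for all genes. With arrays centred on their medians, 7 were higher in mesenchyme and 10 in urothelium, with 1181 and 1689 of all genes against 1621 and 1055 without centring.

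Among ligands and receptors, Igf2, the main fetal IGF, had 35485 ± 5373 (SD, n = 3) in mesenchyme and 12258 ± 5990.2 in urothelium (−1.65 ± 0.36, limma adjusted p = 0.0101). Igf2r, the receptor that clears IGF2, had 13728 ± 3658 and 4462 ± 1526 (−1.63 ± 0.31, adjusted p = 0.00449). The genes of both IGF ligands were thus higher in mesenchyme, and Igf1 differed by more on the log2 scale; a test of one difference against the other was not run. Of the 3 genes of the acid-labile subunit and related binding proteins, including Igfbp1, 0 passed in limma (smallest adjusted p 0.230), and 0 had an unadjusted p under 0.05.

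Genes of proteases that cut IGF binding proteins, and of their inhibitors, included 4 of 9 higher in mesenchyme and 1 in urothelium, beside 8.91% and 5.80% of all genes. Htra1, a secreted serine protease gene, had 9594 ± 4236 in mesenchyme and 283 ± 78.9 in urothelium (−4.78 ± 0.41). Adam12, a metalloprotease gene, had 8324 ± 3408 and 364 ± 73.8 (−4.28 ± 0.38). Pappa, the gene of the IGFBP4 protease PAPP-A, had 344 ± 182 and 55.7 ± 23.9 (−1.88 ± 0.44), in the compartment where Igfbp4 was also higher, and its relative Pappa2 had 508 ± 340.1 and 72.1 ± 43.1 (−2.13 ± 0.51). The call of Pappa was lost without mesenchyme 2 (−1.52), urothelium 7 (−1.87) or urothelium 8 (−1.71), and that of Pappa2 without urothelium 7 (−1.96) or urothelium 8 (−2.02). The urothelium means of Pappa and Pappa2 lie near the pseudocount, so the size of their differences depends on it. With pseudocounts of 1 and 179 Pappa gave −2.57 and −1.11, and Pappa2 −2.75 and −1.36. Adam28 was higher in urothelium, at 268 ± 122 against 8.90 ± 7.50 (limma adjusted p = 0.00103). Its mesenchyme signals lie below the pseudocount, which sets the size of its log2 difference: 2.48, or 4.97 with a pseudocount of 1 and 1.22 with 179. Averaging its probe sets gave 1.64. These proteases have many substrates besides binding proteins.

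Inside the cell, 1 of 11 receptor substrates and adaptors was higher in mesenchyme and 1 in urothelium, and 9 did not pass. Over all genes the shares were 8.91% and 5.80%. Irs1 had 19615 ± 607 in mesenchyme and 5708 ± 675 in urothelium (−1.78 ± 0.24, limma adjusted p = 0.000392), and Irs4 had 44.8 ± 13.3 and 699 ± 518 (2.60 ± 0.69, adjusted p = 0.0278). The call of Irs4 was lost in 5 of the 6 fits that left out an array, the exception being the one without urothelium 7, and without mesenchyme 1 and urothelium 5 together (2.01). Its mesenchyme mean lies at the pseudocount, and with a pseudocount of 1 the difference was 3.40. The call was also lost with a pseudocount of 179 (1.71), with array weights (1.43) and when its probe sets were averaged (1.12). Irs2 (−1.06 ± 0.74), which passed with array weights (−1.88), and the adaptor gene Grb10 (−0.12 ± 0.33) did not pass. Grb10, with 70895 ± 20992 and 66221 ± 24910, had the opposite sign with arrays centred on their medians (0.26). Of 16 measured genes of the PI3K and Akt branch, 3 were higher in urothelium and 0 in mesenchyme in limma, beside 5.80% and 8.91% of all genes. At an unadjusted p under 0.05 these counts were 5 and 0, beside 9.78% and 15.2% of all genes. With arrays centred on their medians 5 passed towards urothelium and 0 towards mesenchyme, beside 1689 and 1181 of all 18193 genes. That centring also moved the median gene to 0.28, towards urothelium. The 3 were Pik3r3 (1.76), Foxo3 (1.67) and Phlpp1 (1.59), named after their values were seen. Of the 2 measured genes of IGF mRNA binding proteins 0 passed in limma, and 0 had an unadjusted p under 0.05, while Igf2bp1 passed towards urothelium with arrays centred on their medians. In the growth hormone axis, which sets Igf1 output in liver, the receptor gene Ghr was higher in mesenchyme (35830.0 ± 2454 against 17248 ± 2887; −1.06 ± 0.25, adjusted p = 0.0131) and the transcription factor gene Stat5a in urothelium (475 ± 66.6 against 2767 ± 1191; 2.36 ± 0.38). In the mean of its probe sets Stat5a did not pass (2.33). The call of Ghr was lost without mesenchyme 2 (−1.03) or mesenchyme 4 (−1.04) and with arrays centred on their medians (−0.68).

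**Figure D5:**
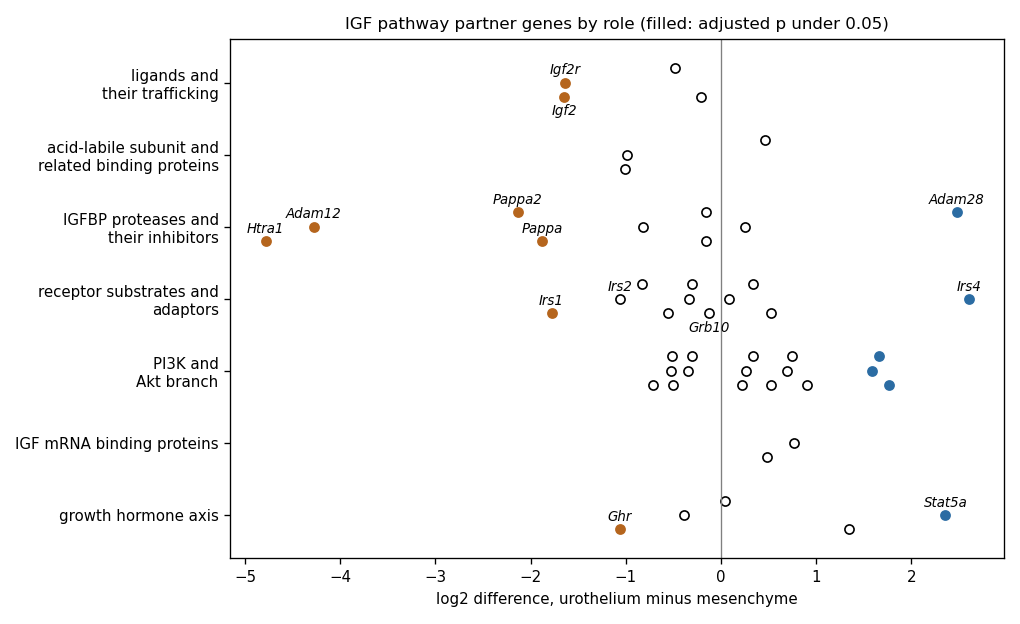
Log2 difference of the 50 measured partner genes, urothelium minus mesenchyme, by role; filled points passed the test, and the genes named by rule are labelled. The proteases Htra1 (−4.78) and Adam12 (−4.28) lie farthest towards mesenchyme and Irs4 (2.60), Adam28 (2.48) and Stat5a (2.36) lie right of 0. The places of Irs4 and Adam28 depend on the pseudocount, since their mesenchyme means lie at or below it. Those of Pappa and Pappa2 depend on it too, since their urothelium means lie near it.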

How the data were processed

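Gene expression was measured on 6 Affymetrix arrays. The authors deposited array intensity, linear and unlogged, with 1 number per probe set. GCOS, the Affymetrix scanner software, is the tool named in the submitters' processing notes, and how it computed signals is not given in the sources used here. All arrays had a 2% trimmed mean of 1500. They were therefore not scaled further, and a difference in total RNA per cell would not show. Names came from GEO's platform annotation, and 18193 genes were each read from the probe set with the highest mean log2 signal. limma 3.58.1 in R 4.3.3 (lmFit, eBayes with an intensity trend) was fitted to log2(signal + 45), 45 being the 25th percentile of all values, with Benjamini-Hochberg adjustment over all genes, or over all 34945 probe sets. The fit was tested on simulated data. No detection calls were used. No replicate number occurs in both compartments, and neither batches nor scan dates were used.

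The members and lists were chosen with earlier results of these data known. The rule for names took all 9 members, 7 partner genes whatever their result, the 3 partners with the largest difference past the test in each direction, and the 2 genes most like each member that passed. Alternatives were pseudocounts of 1 and 179, quantile normalization, median centring, a filter on dim genes, no trend, array weights, the mean of probe sets, a 2-fold threshold, the beta-actin ratio as a covariate, and leaving out arrays.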

Additional observations from a re-analysis of the deposited data

How the results depend on the processing

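No paired analysis was possible because the compartments share no replicate number. In the fit over genes Igf1, Igfbp3 and Igfbp4 kept their direction and their call under the alternatives tried, except that Igfbp4 did not pass against a 2-fold difference. Leaving out 1 array gave 3 member genes higher in mesenchyme in each fit and 1 to 2 higher in urothelium. Averaging probe sets left 1 member gene and 3 partners higher in urothelium. Against a 2-fold difference 0 member genes were higher in urothelium, and 5 and 0 member probe sets, 2 and 2 partners and 647 and 392 of all genes passed towards mesenchyme and urothelium. Leaving out 1 array gave 8 to 10 member probe sets towards mesenchyme and 0 to 2 towards urothelium, and 660 to 1059 of all genes towards urothelium. Array weights gave 2996 and 2055 of all genes, and dropping genes below the median signal left 998 towards mesenchyme. Median centring gave 1689 genes and 10 partners towards urothelium, and moved the median gene from −0.11 to 0.28.

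Signs turned for genes and probe sets near 0, none of which passed. Averaging probe sets gave −0.20 for Igf1r and −0.076 for Insr. Without 1 array Igf1r and its brightest set 1452982_at ran from −0.0063 to 0.43, its set 1452108_at from −0.19 to 0.014, and Grb10 from −0.41 to 0.11. The Insr sets 1421380_at and 1450225_at ran from −0.75 to 0.31 and from −0.98 to 0.42, the Igfbp5 set 1422313_a_at from −0.28 to 0.82 and the Igfbp7 set 1437804_at from −0.21 to 0.38. Median centring gave 0.26 for Grb10, 0.20 for 1452108_at and 0.11 for 1450225_at, and quantile normalization 0.23 and 0.034 for these sets. Set 1450225_at was 0.018 with a pseudocount of 1, and 1421380_at 0.098 without mesenchyme 1 and urothelium 5 together. The cause was not tested. No detection calls were used, so a dim signal is not told from background here.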

Other observations

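The protein-coding neighbours of the members in RefSeq's GRCm38.p6 annotation were looked at because some binding protein genes lie in pairs. Igfbp2 and Igfbp5 are direct neighbours, and their differences were 0.72 ± 0.55 (not past the test) and 1.55 ± 0.35. Igfbp1 and Igfbp3 are direct neighbours as well. Igfbp1 had 50.9 ± 48.1 (SD, n = 3) in mesenchyme and 81.4 ± 44.1 in urothelium, a difference of 0.46 ± 0.45 (limma adjusted p = 0.613), while Igfbp3 differed by −3.58. On either side of Igfbp4, Top2a differed by 0.01 ± 0.26, and Tns4 had 9.05 ± 4.41 in mesenchyme, below the pseudocount, and 209 ± 211 in urothelium (limma adjusted p = 0.0330). On either side of Igfbp7, Polr2b differed by 0.21 ± 0.28 and Adgrl3 by −1.95 ± 0.37 (limma adjusted p = 0.00400), opposite to Igfbp7 (1.23). These neighbours were looked at after the data were seen.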
